A study of Mus musculus with 6 samples.

Results

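The genes described here are 10 genes of bone morphogenetic protein (BMP) signalling: the ligand gene Bmp4, the receptor genes Bmpr1a and Bmpr2, the signal transducer genes Smad1 and Smad5, the inhibitor gene Smad6, and the target genes Id1, Id2, Id3 and Id4. They were chosen by gene symbol in the platform annotation, and all 10 were found, each with 1 probe set, among 19937 genes tested. Mouse embryonic stem (ES) cells cloned from 46C, a male line on the 129P2/OlaHsd background with a Sox1-GFP knock-in, had been stably transfected with a vector for FLAG-tagged mouse CTCFL or with a control vector. The 3 control vector cultures and 3 FLAG-CTCFL cultures were kept in 10% serum under 1 ug/ml puromycin, and 200 ng of total RNA of each was read on an Affymetrix Mouse Gene 1.0 ST array. CTCFL is the testis paralog of the insulator protein CTCF. Which promoter drives the transgene, and how many independent clones a group holds, is not given in the sources used here. The p-values therefore speak of the spread among these cultures alone. In bulk RNA, fewer cells that express a gene and less of its RNA per cell cannot be told apart.

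BMP ligands bind a complex of type I and type II receptor kinases, which phosphorylate Smad1, Smad5 and Smad9. With Smad4 these enter the nucleus and activate target genes, foremost the Id genes and the feedback inhibitors Smad6, Smad7 and Bambi. Id proteins have a helix-loop-helix dimerisation domain but no DNA-binding region, and they hold E proteins and other basic helix-loop-helix (bHLH) factors in inactive dimers. In mouse ES cells, BMP4 or serum together with leukaemia inhibitory factor is known to induce Id genes and to hold back neural differentiation.

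Ctcfl, which checks the labels, had a log2 signal of 7.70, 7.85 and 7.89 on the control arrays and of 11.33, 11.22 and 11.24 on the FLAG-CTCFL arrays. Array medians of log2 signal lay between 7.92 and 7.99. The ES cell markers fixed for the check were all above the median signal of the genes (8 of 8), among them Pou5f1 (12.65 ± 0.05 in controls and 12.54 ± 0.09 with FLAG-CTCFL, SD, n = 3) and Nanog (13.35 ± 0.06 and 12.72 ± 0.07). As a yardstick for unexpressed genes, the 95th percentile of the mean log2 signal of 1194 olfactory and vomeronasal receptor genes was 7.63, and all 10 genes had both group means above it. Differences are FLAG-CTCFL minus control vector on the log2 scale with the moderated SE of limma (n = 3 per group), and a gene was called changed at a Benjamini-Hochberg adjusted p under 0.05 over all genes.

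FLAG-CTCFL cells had less Bmp4 RNA but more Id1, Id2 and Id3 RNA. Of the 10 genes 6 were called, 4 higher (Smad1, Id1, Id2 and Id3) and 2 lower (Bmp4 and Smad6), where 30.9% of all genes were called in either direction, 12.5% higher and 18.4% lower. Among genes above the median signal, 49.3% were called, and 5 of the 8 BMP genes in that range. The receptor genes Bmpr1a and Bmpr2, Smad5 and Id4 did not pass. The arrays of the groups did not overlap for 7 of the 10 genes, against 41.3% of all genes.

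**Figure D1:**
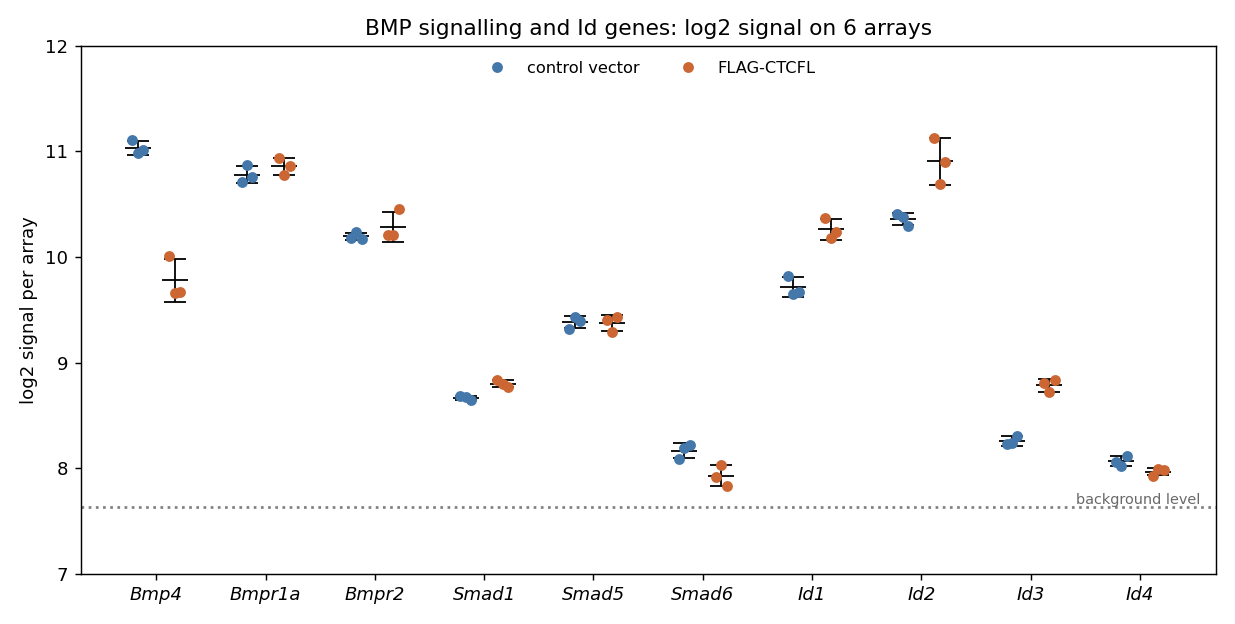
Log2 signal of each of the 10 genes on every array, with replicates 1 to 3 from left to right in each group, the group mean and its SD (bars, n = 3); the dotted line is the background level of 7.63. Bmp4 falls from about 11.03 to 9.78, Id1, Id2 and Id3 lie higher on all 3 FLAG-CTCFL arrays, and the groups overlap for Bmpr1a, Bmpr2 and Smad5.

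Bmp4 codes for the BMP ligand that ES cells are best known to make. Its log2 signal was 11.11, 10.98 and 11.01 on the control arrays and 10.01, 9.66 and 9.67 on the FLAG-CTCFL arrays. All 3 FLAG-CTCFL arrays lay below the controls, with replicate 1 the least low. The difference was -1.26 ± 0.08 (adjusted p = 7.51e-08), a signal 2.39-fold lower, and it ranked 44th among the falls of all genes. With single arrays left out and under the other settings it stayed between -1.37 and -1.19. RefSeq lists a pseudogene copy, Bmp4-ps, on chromosome X, and whether the Bmp4 probe set also reads it was not tested.

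Bmp4 lies on chromosome 14, in a stretch where most genes were lower along with it. Counting genes above the median signal, that stretch ran from Ero1a (-1.05), 6 steps before Bmp4, to Mzt1 (-0.23). In the order of these 337 genes along the chromosome, Ero1a was number 102, Bmp4 108 and Mzt1 299. The stretch thus covered a large part of the chromosome, far more than the nearest neighbours of Bmp4. Before and after it, genes called lower, called higher and not called were mixed. Its ends were read off after the values were seen. Of 337 genes of that chromosome above the median signal 222 were lower (65.9%) and 33 higher (9.79%), with a median difference of -0.34, where 30.8% of all genes in that signal range were lower and 18.6% higher. Of the 40 nearest genes above the median signal, 20 on each side in the order of the GRCm38.p6 RefSeq table, 30 were lower and 2 higher (Sncg and Otx2), with a median difference of -0.48. On the side of higher coordinates 18 of 20 were lower (median -0.55), and on the other side 12 of 20 (median -0.215). The genes next to Bmp4 were Fermt2 (-0.72) and Ddhd1 (-0.58) on one side and Cdkn3 (-0.50) and Cnih1 (-0.49) on the other. Only 1 of the 40, Lgals3, with -1.48, had a larger fall than Bmp4, whose difference lay -0.77 from the median of its neighbours. The fall of Bmp4 thus lies among falls of most genes of that stretch in that signal range, whose part in it was not tested.

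**Figure D2:**
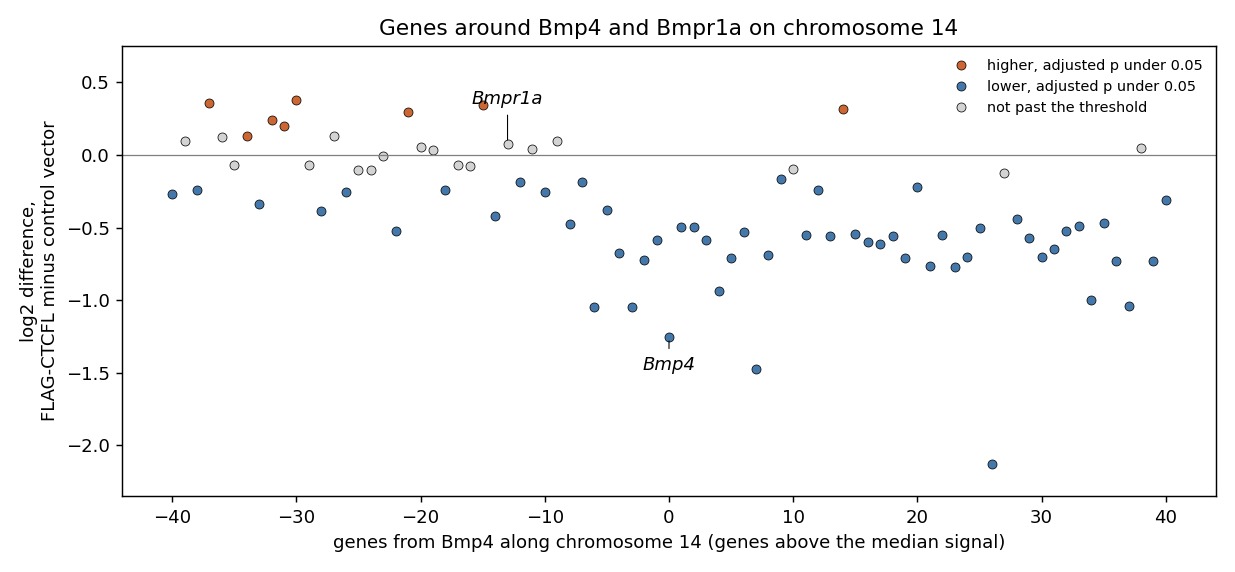
Log2 difference of each gene above the median signal against its number of genes from Bmp4 along chromosome 14, for 40 genes on either side; colour gives the call at an adjusted p under 0.05. Bmp4 (-1.26) sits among genes that are nearly all lower, while Bmpr1a (0.08), 13 steps away, lies where differences of both signs are seen. The stretch of falls runs on beyond the right edge of the plot.

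Bmpr1a, which codes for the type I receptor ALK3, lies on the same chromosome with 12 such genes between it and Bmp4. It lies 7 steps before Ero1a, the end of the stretch that was set with the values known, and did not fall. Between Bmpr1a and Ero1a, Wapl, Ccser2, Tspan14 and Prxl2a were called lower, and Mir346 and Ghitm did not pass. The log2 signal of Bmpr1a was 10.71, 10.87 and 10.76 in controls and 10.93, 10.78 and 10.86 with FLAG-CTCFL, so the groups overlapped. The difference was 0.08 ± 0.05 (95% confidence interval -0.04 to 0.20, adjusted p = 0.351). It passed once the arrays were quantile normalized, at 0.14 (adjusted p = 0.0226). On its side towards lower coordinates 6 of 20 neighbours were lower and 5 higher (median -0.07), and on the side towards Bmp4 18 of 20 were lower (median -0.56). The next genes were Sncg, coding for a synuclein (0.35), and Mmrn2 (-0.42) on one side and Wapl, a cohesin release factor (-0.18), and the microRNA gene Mir346 (0.04) on the other. The 40 neighbours of Bmpr1a and those of Bmp4 share 26 genes.

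Bmpr2, the type II receptor, had log2 signals of 10.18, 10.23 and 10.17 in controls and of 10.21, 10.21 and 10.45 with FLAG-CTCFL. FLAG-CTCFL replicate 3 alone was clearly above the controls, and the difference of 0.09 ± 0.06 (95% confidence interval -0.04 to 0.23, adjusted p = 0.320) did not pass. With array weights, which gave most weight to that replicate, Bmpr2 passed at 0.23 (adjusted p = 0.000709). The confidence intervals of both receptor genes hold 0, and they reach no further than 0.23 upwards.

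Smad1 and Smad5 carry the signal from the receptors to the nucleus. Smad1 read 8.68, 8.67 and 8.65 in controls and 8.83, 8.80 and 8.77 with FLAG-CTCFL. The groups did not overlap, the rise was 0.13 ± 0.04 (adjusted p = 0.0253), and it was the smallest called difference among the 10. It did not pass when any single control array (0.14, 0.14 and 0.13 for replicates 1, 2 and 3) or FLAG-CTCFL replicate 1 (0.12) was left out (adjusted p 0.0582 to 0.0975) and when array medians were subtracted (0.11, adjusted p = 0.103). Smad5 read 9.32, 9.43 and 9.40 in controls and 9.40, 9.29 and 9.43 with FLAG-CTCFL, with overlapping groups and a difference of -0.01 ± 0.05 (95% confidence interval -0.12 to 0.10, adjusted p = 0.941).

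Smad6 codes for an inhibitory Smad that blocks type I BMP receptors and is itself a BMP target. Its log2 signal was 8.09, 8.19 and 8.22 in controls and 7.91, 8.03 and 7.83 with FLAG-CTCFL. Every FLAG-CTCFL array was below every control array, and the fall was -0.24 ± 0.06 (adjusted p = 0.00487). With each gene's own variance alone, Smad6 did not pass (adjusted p = 0.0965). Among its 40 neighbours 13 were lower and 2 higher, around a median of -0.08, close to the 30.8% lower among all genes above the median signal.

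The upstream sequences of Bmp4 and of 3 Id genes are shown because Bmp4 fell while Id2 and Id3 rose and Id4 did not pass. RefSeq promoter windows (GRCm38.p6) were found for 9 of the 10 genes, all but Id1, and the 250 bases before the start are printed 5′ to 3′ on the strand of the gene. Capitals mark matches, on either strand, of GGCGCC (a GC-rich element bound by Smad1 and Smad5), CAGAC (the Smad box, on the other strand GTCTG) and a core of the CTCF motif (CC, 3 bases of any kind, AG, 2 bases of any kind, GGC), which did not overlap each other. The windows are chr14:46390670-46390919 (minus strand), chr12:25096093-25096342 (minus), chr4:136143572-136143821 (plus) and chr13:48260866-48261115 (plus).
Bmp4: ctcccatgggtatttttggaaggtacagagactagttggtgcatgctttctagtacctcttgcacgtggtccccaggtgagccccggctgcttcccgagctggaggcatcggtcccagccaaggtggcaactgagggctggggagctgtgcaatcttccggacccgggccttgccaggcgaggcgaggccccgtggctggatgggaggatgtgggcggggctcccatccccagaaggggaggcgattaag
Id2: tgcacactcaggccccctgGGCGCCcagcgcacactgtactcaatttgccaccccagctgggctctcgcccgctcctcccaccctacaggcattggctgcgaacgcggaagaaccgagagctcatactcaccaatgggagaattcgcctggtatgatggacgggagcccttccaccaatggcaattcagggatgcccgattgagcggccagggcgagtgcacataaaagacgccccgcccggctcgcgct
Id3: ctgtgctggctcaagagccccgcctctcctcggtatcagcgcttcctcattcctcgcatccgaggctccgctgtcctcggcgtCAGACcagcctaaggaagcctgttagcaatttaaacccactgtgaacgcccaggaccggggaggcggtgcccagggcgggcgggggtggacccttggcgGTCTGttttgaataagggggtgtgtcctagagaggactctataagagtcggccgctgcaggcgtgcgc
Id4: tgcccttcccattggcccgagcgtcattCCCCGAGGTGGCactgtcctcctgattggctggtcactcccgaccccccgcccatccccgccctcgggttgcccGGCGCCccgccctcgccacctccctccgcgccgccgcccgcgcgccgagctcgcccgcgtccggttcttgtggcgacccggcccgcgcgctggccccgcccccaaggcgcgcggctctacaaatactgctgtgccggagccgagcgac
Id2 had 1 GGCGCC, Id3 had 2 Smad boxes, Id4 had 1 GGCGCC and 1 CTCF core, and Bmp4 had no match. Of the genes whose windows are not printed, Bmpr1a, Bmpr2 and Smad5, which were not called, also had GGCGCC. Smad5 had a Smad box and a CTCF core in another of its windows. Smad1, called higher, and Smad6, called lower, had no match. Of 32851 windows of this length in the RefSeq table, 9.59% held GGCGCC, 42.2% CAGAC and 7.17% the CTCF core. A match describes these letters only, and the arrays do not measure binding.

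Id1 read 9.82, 9.65 and 9.67 on the control arrays and 10.37, 10.18 and 10.23 on the FLAG-CTCFL arrays. The groups did not overlap, and Id1 rose by 0.55 ± 0.06 (adjusted p = 1.13e-05, 1.46-fold). Id2 read 10.41, 10.38 and 10.30 in controls and 11.13, 10.69 and 10.90 with FLAG-CTCFL. All FLAG-CTCFL arrays were higher but spread more widely (SD 0.22 against 0.06), and the rise was 0.55 ± 0.08 (adjusted p = 0.000219, 1.46-fold). With each gene's own variance alone, this call was lost (adjusted p = 0.0645). Id3 read 8.23, 8.23 and 8.31 in controls and 8.81, 8.72 and 8.83 with FLAG-CTCFL. It rose by 0.53 ± 0.05 (adjusted p = 1.57e-06, 1.44-fold), and its groups stood well apart. These rises ranked 189th, 194th and 213th among all genes. Id4 read 8.06, 8.02 and 8.12 in controls and 7.93, 7.99 and 7.98 with FLAG-CTCFL. Its FLAG-CTCFL arrays were all slightly lower, and the difference of -0.10 ± 0.04 did not pass (95% confidence interval -0.20 to -0.0040, adjusted p = 0.115), although it did with quantile normalized arrays (-0.12, adjusted p = 0.0211), with array medians subtracted (-0.12, 0.0459) and with array weights (-0.08, 0.0490).

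The rises of Id1, Id2 and Id3 were compared with each other and with Id4. Id1 exceeded Id2 by 0.0027 ± 0.09 and Id3 by 0.02 ± 0.09, and Id2 exceeded Id3 by 0.02 ± 0.12 (SE of the difference of differences, n = 3 per group). These differences were smaller than their errors (exact two-sided permutation p = 1, 0.80 and 1), in a design whose p cannot go below 0.10 and which does not show that the rises are equal. Id4 stood apart from each of them, by 0.65 ± 0.10 from Id1, 0.64 ± 0.16 from Id2 and 0.63 ± 0.05 from Id3 (exact permutation p = 0.10 each, the smallest that 3 against 3 arrays allow). That p was fixed by the single genes, since Id4 lay lower and the other Id genes higher on every FLAG-CTCFL array. The 40 nearest expressed genes had a median difference of 0.02 around Id1, -0.0024 around Id2, -0.07 around Id3 and -0.08 around Id4. Around Id2 and Id3 none of the 40 rose as much as the Id gene, and around Id1 1 of 40 did.

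Bmp4 was then set against each Id gene, since Id genes are targets of its signal. Taken on each array, Bmp4 minus Id1 differed between the groups by -1.80 ± 0.06, Bmp4 minus Id2 by -1.80 ± 0.07, Bmp4 minus Id3 by -1.78 ± 0.12 and Bmp4 minus Id4 by -1.16 ± 0.14 (SE, n = 3 per group). In all 4 pairs each FLAG-CTCFL array lay below each control array. The exact two-sided permutation p was 0.10 for each, the smallest this design can give, and 0.143 after adjustment over the 10 pairs compared here and among the Id genes. For Id1, Id2 and Id3 the separation and its p were fixed by the single genes. Bmp4 lay lower and these Id genes higher on every FLAG-CTCFL array, so these tests add nothing to that. Among the FLAG-CTCFL arrays, replicate 1 had the smallest fall of Bmp4 against the control mean (-1.02) and the largest rise of Id1 (0.66) and Id2 (0.77), while replicate 2 had the largest fall of Bmp4 (-1.38) and the smallest rises of Id1 (0.47), Id2 (0.33) and Id3 (0.46). Id3 departed from that order, with its largest rise in replicate 3 (0.58, against 0.55 in replicate 1), where Bmp4 fell almost as far (-1.37) as in replicate 2. With 3 arrays no relation between them was computed.

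**Figure D3:**
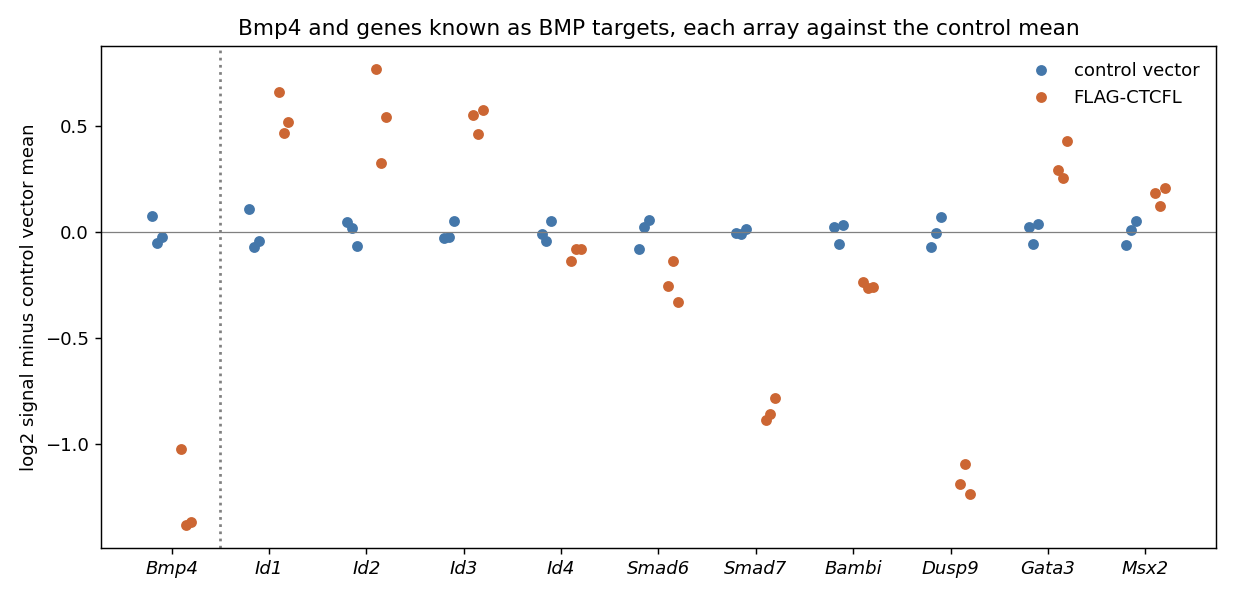
Log2 signal of each array minus the control vector mean, for Bmp4 (left of the dotted line) and for genes known as BMP targets, with replicates 1 to 3 from left to right. Of the listed targets only those that were called, and Id4, are shown. The others (Smad9, Msx1, Atoh8, Hey1, Gata2 and Dlx5) were not called, and their groups overlapped. Over all genes the groups did not overlap for 41.3%. The 3 FLAG-CTCFL arrays lie above the controls for Id1, Id2, Id3, Gata3 and Msx2 and below them for Bmp4, Id4, Smad6, Smad7, Bambi and Dusp9.

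The wider pathway was read from lists by role that were set up together with these 10 genes. Of 69 measured genes beside the 10, 21 were called (30.4%, against 30.9% of all genes), 7 higher and 14 lower, with a median difference of -0.0051 against 0.0037 for all genes. The share called was near the background. Of the 21 calls, 14 held with each array left out in turn, and 10 in every alternative that measured the gene. The counts by role below are small, and they are to be read against the 12.5% higher and 18.4% lower of all genes, or the 18.6% and 30.8% of those above the median signal.

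Of 16 known BMP targets on the list 5 were higher (Id1, Id2, Id3, Gata3 and Msx2) and 4 lower (Dusp9, Smad7, Bambi and Smad6), with a median of 0.04, and of all genes 12.5% were higher and 18.4% lower. Dusp9 codes for a phosphatase that holds back ERK signalling and is known as a BMP4 target in ES cells. It read 11.89, 11.96 and 12.03 in controls and 10.78, 10.87 and 10.73 with FLAG-CTCFL, groups far apart, and fell by 1.17 ± 0.05 (adjusted p = 3.26e-09). Dusp9 lies on chromosome X, where 35 of its 40 nearest expressed genes were lower (median -0.65), and 57.1% of the 331 genes of that chromosome above the median signal. The part of the chromosome in the fall of Dusp9 was not tested. Smad7, the inhibitory Smad shared by BMP and TGF-beta signalling, read 10.57, 10.56 and 10.58 in controls and 9.69, 9.71 and 9.79 with FLAG-CTCFL, and fell by 0.84 ± 0.04 (adjusted p = 1.24e-08). Its neighbours did not share this, with a median of -0.0040 over 40 genes and none as low. Bambi, a receptor-like inhibitor without a kinase domain, fell by 0.25 ± 0.04 (adjusted p = 0.000522). The transcription factor gene Gata3 rose by 0.33 ± 0.05 (adjusted p = 0.000294). Msx2, a homeobox gene, rose by 0.17 ± 0.05 (adjusted p = 0.0120), a call lost without control replicate 1 (0.14, adjusted p = 0.0695) or FLAG-CTCFL replicate 3 (0.15, adjusted p = 0.0611), with array medians subtracted (0.15, 0.0526) and without a shared variance (0.0649).

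Of 10 listed feedback and other inhibitors, 4 were lower (Smad6, Smad7, Bambi and Tob1) and 6 did not pass, with a median of -0.08. Since 8 of the 10 lie above the median signal, where 30.8% of genes were lower, this count is near the background. Tob1, a protein that can repress Smad-driven transcription, fell by 0.21 ± 0.05 (adjusted p = 0.00377). The ubiquitin ligase genes Smurf1 (-0.07, adjusted p = 0.396) and Smurf2 (-0.10, 0.161), whose products mark BMP Smads for breakdown, did not pass.

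Among 14 ligand genes 2 were higher and 3 lower, and the mean signal of 7 lay under the background level. Bmp7, after Bmp4 the largest fall, read 8.64, 8.76 and 8.68 in controls and 8.22, 8.43 and 8.47 with FLAG-CTCFL (-0.32 ± 0.06, adjusted p = 0.00141), and did not pass without a shared variance (0.0808). Bmp2 was at 7.40 ± 0.07 and 7.29 ± 0.13 (SD, n = 3), under the background level in both groups. Bmp8a (0.16), Gdf7 (0.16) and Bmp8b (-0.16) passed narrowly (adjusted p = 0.0203, 0.0460 and 0.0328). Bmp8a did not pass when control replicate 1 (0.15), control replicate 2 (0.14) or FLAG-CTCFL replicate 1 (0.14) was left out, at adjusted p 0.0537 to 0.0968, or with array medians subtracted (0.13, 0.0667). The same held for Bmp8b and control replicate 1 (-0.12), control replicate 3 (-0.17) or FLAG-CTCFL replicate 3 (-0.13), at 0.0784 to 0.166. For Gdf7 it held for control replicates 1 (0.15), 2 (0.15) and 3 (0.18) and FLAG-CTCFL replicates 2 (0.10) and 3 (0.18), at 0.0644 to 0.150, and with array medians subtracted (0.14, 0.0715). Without a shared variance Bmp8a, Bmp8b and Gdf7 did not pass either (adjusted p = 0.0858, 0.161 and 0.215).

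Of 12 receptor and co-receptor genes, 3 were lower and 9 did not pass, with a median of -0.11, a share called no larger than the 30.9% of all genes. Acvrl1, coding for the type I receptor ALK1, fell by 0.27 ± 0.05 (adjusted p = 0.00120, and 0.0518 without a shared variance). The co-receptor gene Eng (-0.14, adjusted p = 0.0268) and the type II receptor gene Acvr2a (-0.15, 0.0324) passed narrowly. Eng did not pass when control replicate 2 (-0.13), control replicate 3 (-0.12), FLAG-CTCFL replicate 1 (-0.12) or FLAG-CTCFL replicate 3 (-0.14) was left out, at adjusted p 0.0583 to 0.105, or with quantile normalized arrays (-0.07, 0.318). Acvr2a did not pass with the same arrays left out (-0.10, -0.16, -0.14 and -0.16), at 0.0566 to 0.182, with quantile normalized arrays (-0.11, 0.0683) or without a shared variance (0.108). Acvr1 (-0.06, adjusted p = 0.378), coding for the type I receptor ALK2, did not pass, and Bmpr1b was under the background level in both groups (7.32 and 7.33). Among the 4 Smads that carry BMP signals, Smad1 alone passed. Smad4, the common partner (0.09, adjusted p = 0.239), and Smad9 (0.16, 0.0599) did not.

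Of 17 measured genes for extracellular modulators of BMPs, 2 were higher, 2 lower and 13 did not pass. Fst codes for follistatin, which binds activins and, more weakly, BMPs. It read 7.63, 7.57 and 7.61 in controls and 8.45, 8.27 and 8.37 with FLAG-CTCFL and rose by 0.76 ± 0.05 (adjusted p = 1.27e-07). Its control mean of 7.60 was under the background level of 7.63, so the rise may be understated. Crim1, a membrane protein that binds BMPs, rose by 0.22 ± 0.05 (adjusted p = 0.00328), and Twsg1 (-0.25 ± 0.05, 0.00175) and the follistatin-like gene Fstl3 (-0.21 ± 0.05, 0.00315) fell. Crim1 and Twsg1 did not pass without a shared variance (adjusted p = 0.0575 and 0.0501). The classic antagonist genes Nog (8.22 ± 0.03 and 8.17 ± 0.06, SD, n = 3) and Chrd (8.03 ± 0.05 and 8.05 ± 0.06) did not pass.

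Partners of Id proteins and other bHLH genes gave 1 higher and 3 lower of 10 measured, with a median of 0.0010. Tcf15, a bHLH factor of the epiblast that Id proteins can bind, rose from 9.68 ± 0.04 to 10.06 ± 0.06 (SD, n = 3), by 0.38 ± 0.05 (adjusted p = 2.71e-05). Hes1, a repressor downstream of Notch, fell by 0.42 ± 0.05 (adjusted p = 2.10e-05), and the neural gene Neurod1 by 0.38 ± 0.05 (adjusted p = 2.43e-05), to a mean of 7.52 under the background level. The E protein gene Tcf12 fell by 0.17 (adjusted p = 0.0291), and did not pass when control replicate 2 (-0.14), control replicate 3 (-0.17) or FLAG-CTCFL replicate 2 (-0.11) was left out, at adjusted p 0.0745 to 0.137, with quantile normalized arrays (-0.10, 0.0785) or without a shared variance (0.167). Tcf3 (-0.01, adjusted p = 0.947) and Tcf4 (0.11, 0.171), the other E protein genes, did not pass.

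**Figure D4:**
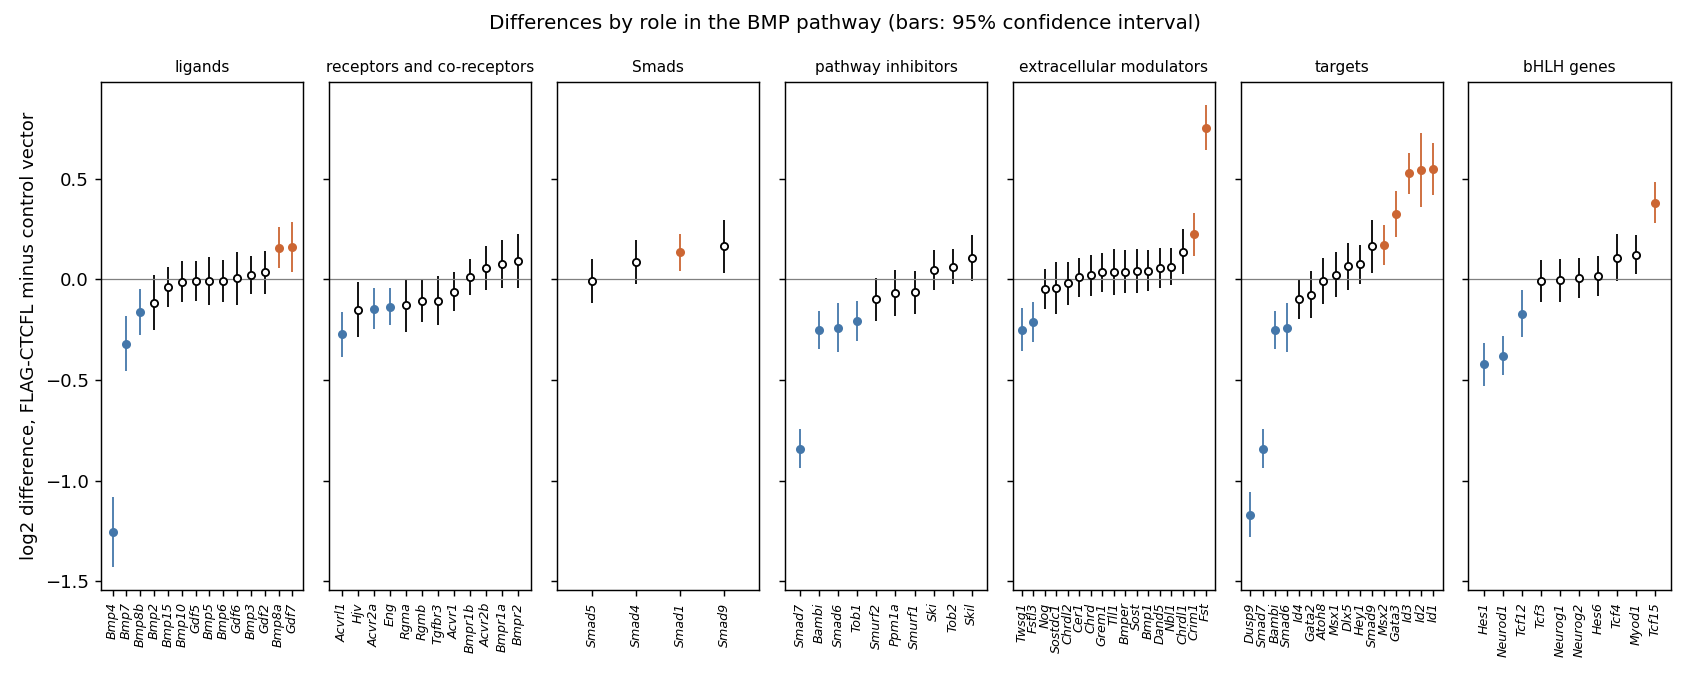
Log2 difference of each measured pathway gene by role, with its 95% confidence interval from limma (n = 3 per group); filled points passed an adjusted p under 0.05 (blue lower, orange higher) and open points did not. Bmp4, Smad7 and Dusp9 are the largest falls, and Fst, Id1, Id2 and Id3 the largest rises.

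Id genes and Bmp4 are also active in other cell types, so marker genes of these were read beside them, again against 12.5% higher and 18.4% lower of all genes. Of 6 trophoblast markers 3 were higher (Eomes 0.61, Gata3 0.33 and Cdx2 0.30) and none lower, with summed log2 signals of 47.54 to 47.83 on the control arrays and 48.67 to 49.22 on the FLAG-CTCFL arrays, and Elf5 under the background level. The control mean of Cdx2 was also under it (7.56), so its rise may be understated, and Cdx2 did not pass without a shared variance (adjusted p = 0.137). Of 6 neural markers 2 were higher (Nes 0.68 and Pax6 0.32) and 1 lower (Map2 -0.44), with sums of 49.89 to 50.39 and 50.43 to 50.72, and Sox1, which carries the reporter, differed by 0.03. Of 5 mesoderm markers 2 were higher (Mixl1 0.31 and Kdr 0.15) and none lower, with sums of 38.66 to 38.97 and 39.32 to 39.57, and Mesp1 under the background level. The control mean of Kdr (7.56) was under that level too. Kdr did not pass when control replicate 1 (0.13), control replicate 3 (0.15) or FLAG-CTCFL replicate 1 (0.13) was left out, at adjusted p 0.0544 to 0.0911, with array medians subtracted (0.13, 0.0864) or without a shared variance (0.0689). Endoderm markers had 1 of 6 higher (Gata6 0.14) and none lower, with sums of 46.86 to 47.11 and 46.96 to 47.30, and Sox17 and Afp under the background level. Gata6 did not pass when control replicate 1 (0.16), 2 (0.16) or 3 (0.11) or FLAG-CTCFL replicate 1 (0.13) or 3 (0.13) was left out, at 0.0553 to 0.194, with quantile normalized arrays (adjusted p = 0.0977), with array medians subtracted (0.162) or without a shared variance (0.138). Fibroblast markers had 1 of 9 higher (Col1a1 0.16) and 1 lower (Thy1 -0.48), with sums of 75.19 to 75.45 and 74.96 to 75.53, and Postn, Lum and Dcn under the background level. Col1a1 did not pass when control replicate 1 (0.14), control replicate 2 (0.16), FLAG-CTCFL replicate 2 (0.11) or FLAG-CTCFL replicate 3 (0.17) was left out, at 0.0551 to 0.127, with array medians subtracted (0.13, 0.0564) or without a shared variance (0.147). Of 8 ES cell markers 5 were lower (Nanog, Esrrb, Dppa5a, Tdgf1 and Sox2) and none higher, with sums of 101.17 to 101.26 and 98.46 to 99.56, and all 8 lie above the median signal, where 30.8% of genes were lower. Sox2 did not pass without a shared variance (adjusted p = 0.0503). The part of these other cell types in the moves of Bmp4 and the Id genes was not tested.

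The genes most like Bmp4 over the 6 arrays, by the root mean square difference of log2 profiles centred on their means among 9967 genes above the median signal, were Dgka (0.05), Slc15a1 (0.07), Lrrc34 (0.07), Pdzd4 (0.07) and Tfpi (0.08). Of these, Slc15a1 is also on chromosome 14, and their differences were -1.22, -1.25, -1.38, -1.21 and -1.20. The genes most like Id1 were Etv4, an ETS factor gene (0.03), Cacng7 (0.03), Zfp961 (0.04), Slc35b1 (0.04) and Steap1 (0.04), with differences of 0.58, 0.55, 0.56, 0.50 and 0.56. That these differences lie near those of Bmp4 and Id1 follows from the way the genes were picked.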

How the data were processed

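Per the labels' protocols, RNA was extracted with a column kit, labelled with the WT terminal labelling kit and hybridised to Affymetrix Mouse Gene 1.0 ST arrays. The deposited table gives each probe set a log2 signal on every array. The log2 scale was read from the range of values; how the authors corrected background, summarised and normalized is not given in the sources used here. Of 34760 probe sets, 21640 had 1 gene symbol in the platform annotation, 1321 several and 11799 none; the RefSeq table of GRCm38.p6 gave current symbols for 21553 by Entrez ID. The probe set with the highest mean was kept per gene.

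The comparison of FLAG-CTCFL with control arrays used limma 3.58.1 under R 4.3.3 (a linear model with group alone and eBayes, two-sided, Benjamini-Hochberg over 19937 genes), which was tested on simulated data. Single pairs were compared with exact permutation tests over arrays. Figures used Python 3.11.15 and matplotlib 3.10.9. The genes and lists were chosen with earlier results of these data known. Named were all 10 genes, list genes past the threshold, the nearest 2 neighbours on each side of Bmp4 and Bmpr1a and the 5 genes most alike. Other genes that did not pass, and Lgals3, Sncg, Otx2, Ero1a and Mzt1, were named after their values were seen. The neighbours of Smad7 and Dusp9 were added then too. Some listed genes were not analysed here. Alternatives were quantile normalization, subtraction of array medians, the replicate number as a block, the mean of probe sets, leaving out genes under the 25th or 50th percentile of signal, array weights, a robust fit with variance trend, no shared variance and each array left out. The number of arrays limits the precision.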

Additional observations from a re-analysis of the deposited data

How the results depend on the processing

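Of the 6 called genes, Bmp4, Id1 and Id3 passed under all 15 alternatives. The number called among the 10 was 4 to 8, 5 to 6 with 1 array left out. The number called lower was 1 both without genes under the 50th percentile of signal, which leaves out Smad6, and without a shared variance. The number called higher was 3 to 4 with 1 array left out. The differences of Bmp4 against Id1 stayed between -1.86 and -1.76, against Id2 between -1.85 and -1.75, against Id3 between -1.89 and -1.71 and against Id4 between -1.29 and -1.07. The median of the neighbours of Bmp4 was -0.42 after quantile normalization and -0.50 to -0.47 with 1 array left out, and that of Bmpr1a -0.30 to -0.22. Among the 69 other pathway genes 32 were called with array weights, 12 without a shared variance and 16 to 24 with 1 array left out; over all genes array weights called 46.2% and no shared variance 19.7%.

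The values gave little sign that the replicate numbers pair the arrays, which 3 arrays a group cannot settle. Deviations of same-numbered arrays from their group means correlated at 0.13, -0.20 and -0.02, and only number 1 matched its own number best. With the replicate number as a block 6 of the 10 genes were called, as without it. Among the listed genes named as called, Gata6 alone did not pass with the block (adjusted p = 0.0558). With 3 arrays a group, small differences such as those of the receptor genes were not detectable beyond their intervals.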
